A study of Mus musculus with 24 samples.

Results

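Retinal ganglion cells are the output neurons of the retina, and 10 genes commonly used to mark them were examined in peak lists of SOX8, SOX9, H3K4me3 and H3K27ac from mouse retina. They are Pou4f1, Pou4f2, Pou4f3, Isl1, Isl2, Rbpms, Nefl, Nefm, Sncg and Thy1, chosen by symbol among 21883 protein-coding genes, and all 10 were found. A gene was counted as having a peak when 1 bp or more of a peak fell within the gene or the 5 kb on either side, hereafter its window. The retinas were wild type, taken whole on postnatal day 2 (P2) or postnatal day 17 (P17). Nuclei (600000 per reaction) were processed by CUT&RUN, in which an antibody directs a nuclease to the chromatin that carries its target and the cut fragments are sequenced. Of 24 libraries, 4 at each age had 1 of 2 SOX8 antibodies (2 libraries per antibody), and 2 at each age were made for each of SOX9, H3K4me3, H3K27ac and a nonspecific IgG. The authors' 8 peak lists, 1 per target and age, carry positions and no height or replicate, so no error between libraries and no test can be given, and the counts below describe these lists. The lists held from 2400 peaks (P17 SOX8) to 287845 peaks (P2 H3K27ac), the latter against 29909 at P17. Library depth cannot be read from the lists, and the 4 IgG libraries were not analysed here.

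Ganglion cells are the first neurons that retinal progenitors produce, and in the mouse their birth is largely over by the time of birth. POU4F and ISL transcription factors act after the progenitor exits the cell cycle to set the ganglion cell programme, while RBPMS, the neurofilaments, gamma-synuclein and THY1 characterise the differentiated cell. SOX8 and SOX9 belong to the SOXE group of transcription factors. SOX9 is known from retinal progenitors and later from Müller glia. H3K4me3 lies at active promoters and H3K27ac at active promoters and enhancers. Ganglion cells are a small minority of retinal cells, and in whole retina fewer cells with a mark and less of the mark per cell cannot be told apart.

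The promoters of 4 genes are shown because the peaks over them differ. Each sequence runs 5′ to 3′ on the strand of the gene, from 250 bases before to 50 bases after a start site, from RefSeq on GRCm38.p6. Capitals mark a match, on either strand, to ACAAT or ACAAAG, core sequences recognised by SOX proteins. Isl1 (chr13:116309639-116309938, minus strand) was under H3K4me3 at P17. Isl2 (chr9:55540899-55541198, plus strand) was under H3K4me3 at P2 and under SOX9 at P17. Pou4f1 (chr14:104467950-104468249, minus strand) was under no peak. Sncg (chr14:34374620-34374919, minus strand) was under H3K27ac at P2.
Isl1: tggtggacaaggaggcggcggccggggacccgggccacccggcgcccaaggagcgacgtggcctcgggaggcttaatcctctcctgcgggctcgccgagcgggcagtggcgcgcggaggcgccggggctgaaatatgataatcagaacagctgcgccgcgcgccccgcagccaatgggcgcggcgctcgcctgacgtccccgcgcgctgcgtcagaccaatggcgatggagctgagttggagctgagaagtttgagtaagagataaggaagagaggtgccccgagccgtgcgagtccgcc
Isl2: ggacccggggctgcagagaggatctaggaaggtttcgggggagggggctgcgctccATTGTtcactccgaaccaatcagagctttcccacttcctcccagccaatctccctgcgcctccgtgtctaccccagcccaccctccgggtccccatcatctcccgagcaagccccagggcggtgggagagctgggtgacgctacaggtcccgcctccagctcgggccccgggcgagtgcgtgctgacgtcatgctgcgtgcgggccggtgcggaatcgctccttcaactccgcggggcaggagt
Pou4f1: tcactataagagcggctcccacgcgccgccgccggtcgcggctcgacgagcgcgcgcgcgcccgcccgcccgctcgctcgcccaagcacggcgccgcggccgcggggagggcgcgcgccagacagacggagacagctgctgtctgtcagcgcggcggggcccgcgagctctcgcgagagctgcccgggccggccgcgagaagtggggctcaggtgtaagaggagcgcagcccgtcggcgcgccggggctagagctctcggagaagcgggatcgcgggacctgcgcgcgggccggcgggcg
Sncg: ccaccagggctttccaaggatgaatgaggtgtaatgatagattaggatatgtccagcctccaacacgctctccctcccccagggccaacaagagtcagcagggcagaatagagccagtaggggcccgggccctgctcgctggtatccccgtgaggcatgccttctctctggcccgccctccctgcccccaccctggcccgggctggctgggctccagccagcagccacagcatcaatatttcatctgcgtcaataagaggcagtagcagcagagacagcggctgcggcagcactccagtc

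The Isl2 promoter held 1 such match, to ACAAT on the opposite strand at -194 to -190 from the start site, where it was part of a match to AACAAT. The shorter of these occurred in 27.7% and the longer in 9.05% of 21262 protein-coding promoters of the same length, and ACAAAG in 16.8%. The promoters of Isl1, Pou4f1, Pou4f2 and Sncg held none of them. The promoters differed in CG dinucleotides, with 57 in Pou4f1, 37 in Isl1, 23 in Isl2, 18 in Pou4f2 and 9 in Sncg, against a median of 13. Only 38 promoters had as many as that of Pou4f1, and 89.5% of those had their start site in a P2 H3K4me3 peak and 84.2% in a P17 one. Pou4f1 was in neither. Of the 8571 promoters with at least as many as Pou4f2, 79.0% were in a P2 H3K4me3 peak, and Pou4f2 was not. This was not particular to the POU4F genes. By the same measure Isl1 was outside at P2 (87.4% inside), Isl2 at P17 (81.2%) and Sncg at both ages (69.7% and 71.0%). Isl1 at P17 and Isl2 at P2 were in a peak.

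Peaks were sparse at the ganglion cell genes when genes with a peak were counted. Mean window coverage in P17 H3K4me3 was higher at them than over all genes (10.6% against 7.85%). That mean rests on Isl1 (71.9%) and Nefm (34.5%) alone, and the median was 0% against 0.848% over all genes. In every other list the mean was lower, though only slightly for P2 H3K4me3 (7.18% against 7.27%) and P17 SOX9 (3.18% against 3.35%). Pou4f1, Pou4f2, Pou4f3 and Nefl had no peak in any of the 8 lists, as did 17.7% of all protein-coding genes. Sncg had peaks in 1 list, Isl1, Rbpms and Thy1 in 2, Isl2 in 3 and Nefm in 4. The median was 1.5 lists per gene, against 3 over all genes. In each list the share of the 10 genes with a peak was below that of all genes, and the plot of window coverage shows where the 52 peaks lay, 34 of them from 1 list at Rbpms.

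**Figure D1:**
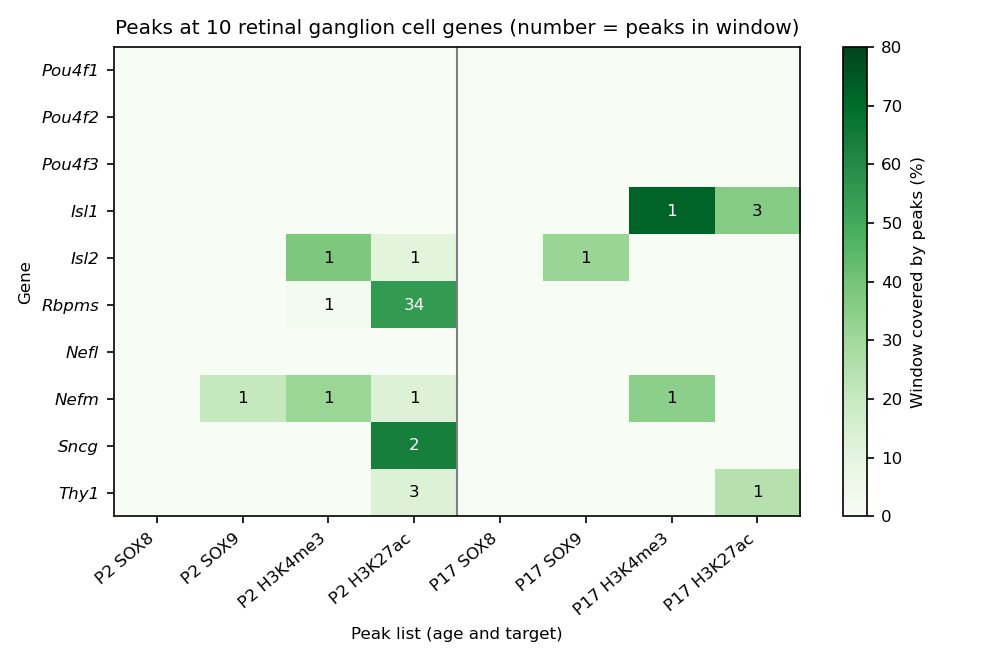
Number of peaks (printed) and share of each gene's window covered by peaks (colour, in percent) for 10 ganglion cell genes (rows) in the 8 peak lists (columns; empty cells have no peak). The rows of Pou4f1, Pou4f2, Pou4f3 and Nefl are empty, and the darkest cell is Isl1 in P17 H3K4me3 at 71.9%.

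SOX peaks were the rarest. None of the 10 genes had a SOX8 peak, against 15.1% of all genes at P2 and 13.0% at P17. In all, 7.0% of genes had a SOX8 peak at P2 only and 4.94% at P17 only. A SOX9 peak lay at 1 gene at P2, Nefm, where 27.7% of all genes had one, and at 1 other gene at P17, Isl2, where 15.7% had one. Each was present at 1 age only, as were SOX9 peaks of 16.3% of all genes at P2 only and 4.34% at P17 only. A count of 0 or 1 among 10 genes is too small to be read against such shares.

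H3K4me3 lay at 3 of the 10 genes at P2 (Isl2, Rbpms and Nefm), against 49.3% of all genes, and at 2 at P17 (Isl1 and Nefm), against 50.9%. Nefm was the gene with H3K4me3 at both ages, and the share of all genes with it at both ages was not computed. Isl2 and Rbpms had it at P2 only, as did 3.40% of all genes, and Isl1 at P17 only, as did 5.0%. H3K27ac lay at 5 genes at P2 (Isl2, Rbpms, Nefm, Sncg and Thy1), against 81.8%, and at 2 at P17 (Isl1 and Thy1), against 57.0%. At 4 genes it was listed at P2 only, as at 25.1% of all genes, and at Isl1 at P17 only, as at 0.315%. The counts of P2-only H3K27ac go with a P2 list many times as long as that of P17. With its widest 29909 peaks alone, 2 genes, Rbpms and Sncg, had P2 H3K27ac. The share of all genes was not computed at that setting, so this count cannot be set against 81.8% or 57.0%.

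The POU4F factors are POU-domain transcription factors that ganglion cells need for differentiation, axon growth and survival, with Pou4f2 acting earliest. Pou4f1 lies on chromosome 14 at 104461675 to 104468118, Pou4f2 on chromosome 8 at 78433009 to 78436647 and Pou4f3 on chromosome 18 at 42394597 to 42396093. The empty windows were not the edge of a nearby peak. The nearest H3K4me3 peak at P2 was 53.0 kb from Pou4f1, 70.3 kb from Pou4f2 and 115 kb from Pou4f3, and the P17 distances were 53.2, 70.0 and 115 kb. Over all genes the median distance to H3K4me3 was 5.20 kb at P2 and 2.81 kb at P17. Yet 33.0%, 29.9% and 24.0% of genes were as far as these 3 or farther at P2, and 31.8%, 28.8% and 22.9% at P17. Even the P2 H3K27ac list, which lay inside or against most genes (median distance 0), came no closer than 14.7 kb to Pou4f1, 12.3 kb to Pou4f2 and 33.0 kb to Pou4f3, and between 10.6% and 14.8% of all genes were as far from it or farther. SOX9 peaks came within 71.2 kb of Pou4f2 at P2 and within 70.0 kb at P17, where 48.0% and 67.7% of genes were as far or farther. They were 707 and 1430 kb from Pou4f1, distances reached by 13.3% and 18.5% of genes. The neighbouring noncoding genes D130079A08Rik and Gm31438, which reach into the windows of Pou4f1 and Pou4f3, had no peak there either.

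**Figure D2:**
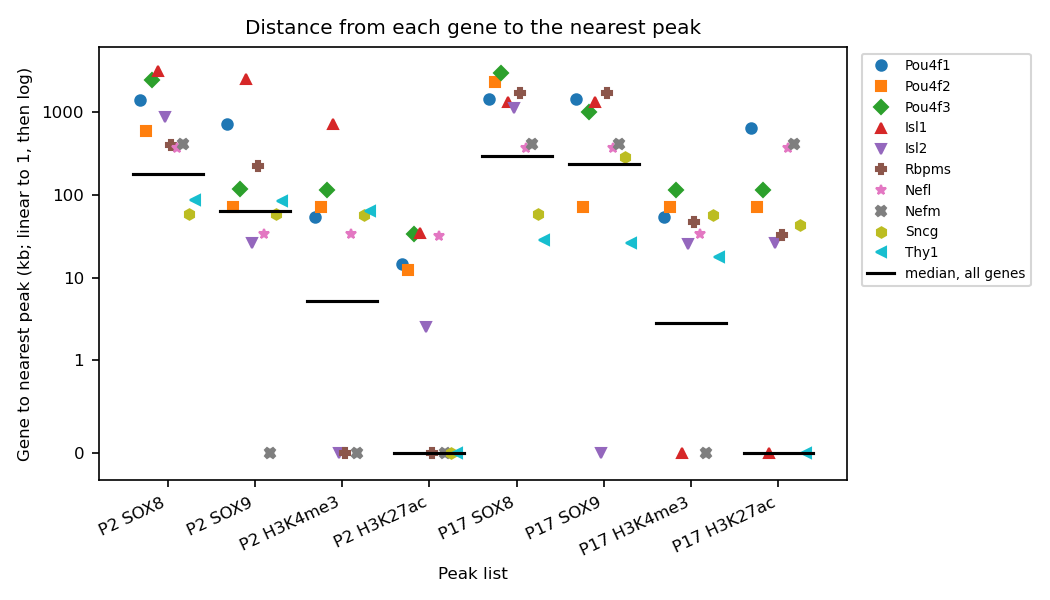
Distance from each of 10 ganglion cell genes (symbols) to the nearest peak in each list, in kb on an axis that is linear up to 1 and logarithmic above; 0 is a peak overlapping the gene, and black lines are medians over all genes. The POU4F genes and Nefl sit above 0 in all 8 lists, and SOX8 is 28.7 kb or farther from all 10 genes at both ages.

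Isl1 and Isl2 encode LIM-homeodomain factors. Isl1 is shared by ganglion cells, bipolar cells and cholinergic amacrine cells, and Isl2 marks a subset of ganglion cells. Their histone marks were listed at opposite ages, at P17 alone at Isl1 and at P2 alone at Isl2. For H3K27ac at Isl2 this rests on 1 peak outside the gene. That peak was not counted with the gene body alone, with 1 kb flanks or with the widest 29909 P2 peaks. The SOX9 peak of Isl2 was listed at P17 alone. Isl1 (chromosome 13, 116298270 to 116309688) had no peak in any P2 list. The nearest P2 H3K4me3 peak was 712 kb away, a distance reached by 6.18% of genes, and the nearest P2 H3K27ac peak was 34.7 kb away. At P17 an H3K4me3 peak of 15549 bp (116299287 to 116314835) covered its start site and 71.9% of its window. It ranked 25 of 9629 in width, against a median of 3703 bp. Only 0.324% of all genes had as much of their window covered in that list.

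Isl1 also had 3 H3K27ac peaks at P17, of 1988, 4038 and 3128 bp. The first ended 42 bp below the gene, the next (116302463 to 116306500) lay inside it and the last began 3258 bp above its start. The latter 2 overlapped the H3K4me3 peak, and none of the 3 covered the start site. Isl1 was 1 of 18 protein-coding genes (0.0823%) with both marks at P17 and neither at P2. The closest SOX peak was P17 SOX9 at 1290 kb, a distance reached by 20.5% of genes.

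Isl2 (chromosome 9, 55538677 to 55547667) carried an H3K4me3 peak of 7189 bp at P2 (55538758 to 55545946), wider than 96.3% of that list, and no H3K4me3 peak at P17, when the nearest was 25.4 kb away. Its single P2 H3K27ac peak (55534083 to 55536144, 2062 bp) lay 2533 bp outside the gene and 2614 bp from the H3K4me3 peak. At P17 the gene held a SOX9 peak of 6040 bp (55540804 to 55546843), wider than 63.0% of its list, whose median was 5336 bp. That peak covered the start site and the ACAAT match of the promoter shown above. It did not reach the 5′ end of the gene, at 55538677. Of its length, 85.1% lay in the stretch that had carried H3K4me3 at P2. No SOX8 peak overlapped it. It overlapped neither mark at P17, with the nearest H3K4me3 peak 27.5 kb and the nearest H3K27ac peak 28.1 kb away. Of all P17 SOX9 peaks, 13.9% overlapped neither mark, and of 3443 genes with a P17 SOX9 peak 4.88% had neither mark in their window. The set of lists with a peak at Isl2 (P2 H3K4me3, P2 H3K27ac and P17 SOX9) was that of 8 protein-coding genes in all, Isl2 included.

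**Figure D3:**
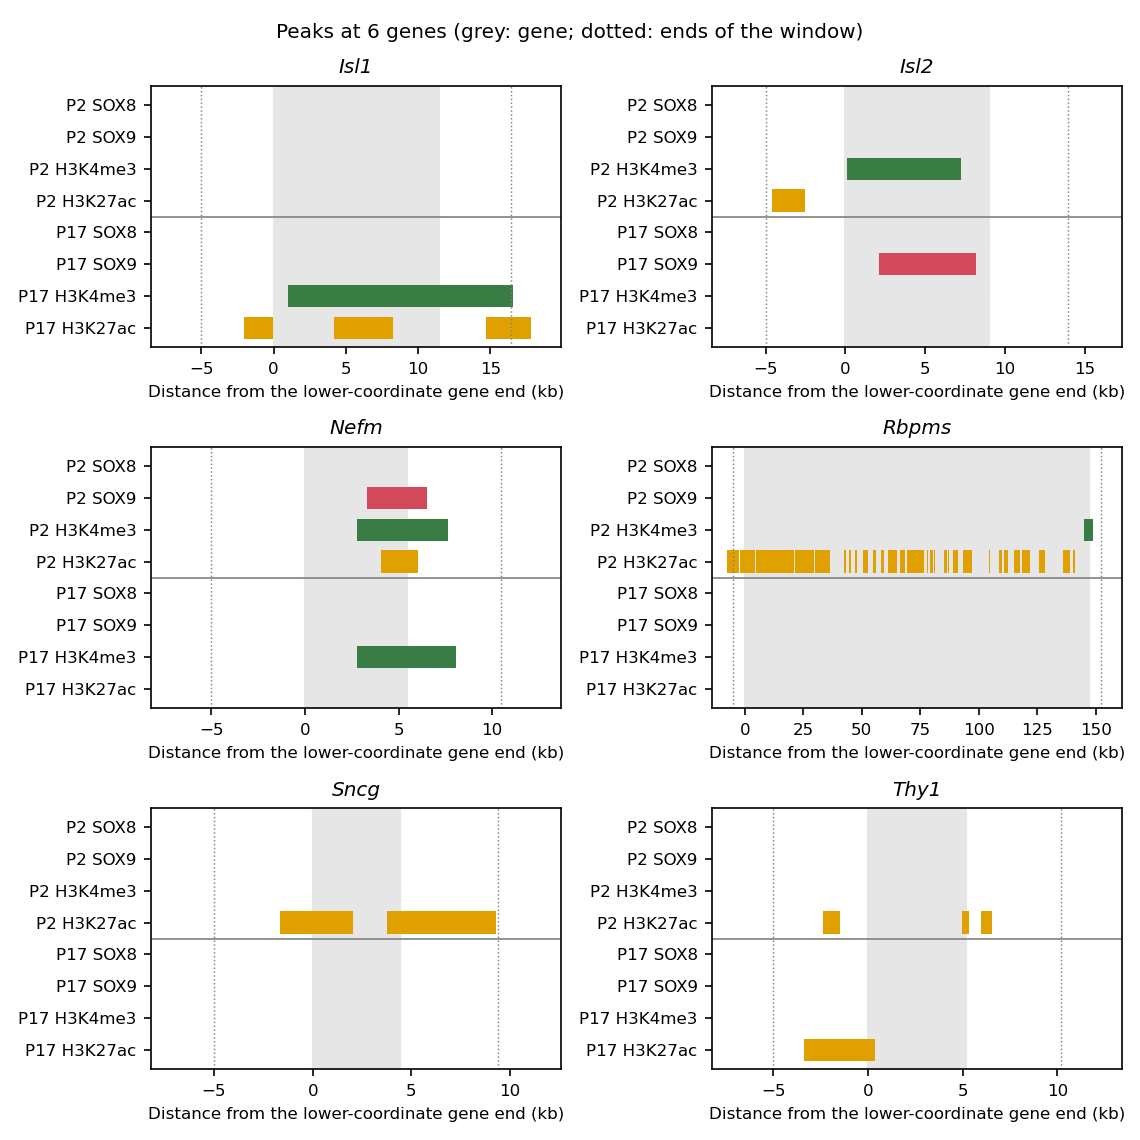
Positions of peaks at the 6 ganglion cell genes that had any, as distance in kb from the end of the gene with the lower coordinate; grey spans are genes, dotted lines the ends of the window and bars peaks coloured by target. Isl1 has peaks in P17 lists alone, Rbpms and Sncg in P2 lists alone, and the P17 SOX9 peak of Isl2 lies over the place of its P2 H3K4me3 peak.

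Rbpms encodes an RNA-binding protein found in nearly all ganglion cells and is by far the longest of the 10 genes, at 147280 bp (chromosome 8, 33782643 to 33929922). At P2 it had an H3K4me3 peak of 3880 bp (33927437 to 33931316) over its upper end. The P2 H3K27ac list placed 34 peaks in its window, from 551 to 11601 bp wide, which covered 86350 bp or 54.9% of it. As much or more was covered in 15.3% of genes. The H3K27ac peak of 5377 bp lay outside Rbpms and overlapped Gtf2e2, and those of 2610 and 1161 bp also overlapped Gm51528. These peaks cannot be assigned to Rbpms alone. The acetylated stretches were densest in the end of the gene far from the H3K4me3 peak. The widest (33792168 to 33803768) was broader than 99.1% of that list, and none overlapped the H3K4me3 peak, from which the nearest was 3585 bp away. No peak of any target was left in the P17 lists, where H3K27ac came no closer than 32.2 kb and H3K4me3 no closer than 47.2 kb. Rbpms and Isl2 were among 417 genes (1.91%) with both marks at P2 and neither at P17, Isl2 only through its H3K27ac peak outside the gene.

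The H3K4me3 peaks of Isl2 and Rbpms at P2 shared a further feature, the lack of H3K27ac beneath them. Of 9134 P2 H3K4me3 peaks, 167 (1.83%) overlapped no P2 H3K27ac peak, and 2 of the 3 at ganglion cell genes were among these. At P17, 939 of 9629 (9.75%) overlapped none, and 1 of the 2 at ganglion cell genes did not, that of Nefm.

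Nefl and Nefm encode the light and medium neurofilament chains, which give large axons such as those of ganglion cells their calibre. They are neighbours on chromosome 14, Nefl at 68083863 to 68089095 and Nefm at 68119545 to 68125004, yet they differed in every list in which either had a peak. Nefl had no peak, and its nearest H3K4me3 peak, 33.2 kb away at both ages, was that of Nefm. Nefm had an H3K4me3 peak over its upper end at both ages, of 4873 bp at P2 (68122321 to 68127193) and 5329 bp at P17 (68122307 to 68127635), and the P17 peak spanned the whole P2 peak. At P2 a SOX9 peak of 3189 bp (68122862 to 68126050) lay entirely within the H3K4me3 peak, and 62.9% of it was also under H3K27ac (68123589 to 68125594, 2006 bp). No SOX8 peak overlapped it. Of all P2 SOX9 peaks, 79.5% likewise overlapped both marks. At P17 neither SOX9 nor H3K27ac was listed at Nefm, and the closest of each was 402 kb from the gene. As far or farther were 40.4% of genes from SOX9 and 10.2% from H3K27ac. The noncoding gene A230070E04Rik starts or ends under the same 4 peaks, so they cannot be assigned to Nefm alone.

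Sncg, which encodes gamma-synuclein, and Thy1, which encodes a surface glycoprotein of neurons, had H3K27ac without H3K4me3. A peak in the P2 H3K27ac list alone, as at Sncg, was found at 19.2% of all genes. Peaks in both H3K27ac lists and no other, as at Thy1, were found at 5.92%. At Sncg (chromosome 14, 34370274 to 34374669) the P2 peaks of 3651 and 5511 bp covered 63.6% of the window, and the second (34374059 to 34379569) spanned the start site and ran into Mmrn2, a gene known from endothelial cells. Neither remained in the P17 list, in which the nearest peak was 42.5 kb away. At Thy1 (chromosome 9, 44043384 to 44048579) the P2 peaks were small, 914, 408 and 602 bp, and the 408 bp peak was wider than just 0.325% of the list. At P17 a single peak of 3735 bp (44040019 to 44043753) lay over the lower end of the gene. It held the first of the P2 peaks whole, and it also overlapped the noncoding gene Gm39323. The nearest SOX peaks to Thy1 lay 25.7 kb (SOX9) and 28.7 kb (SOX8) away at P17.

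**Figure D4:**
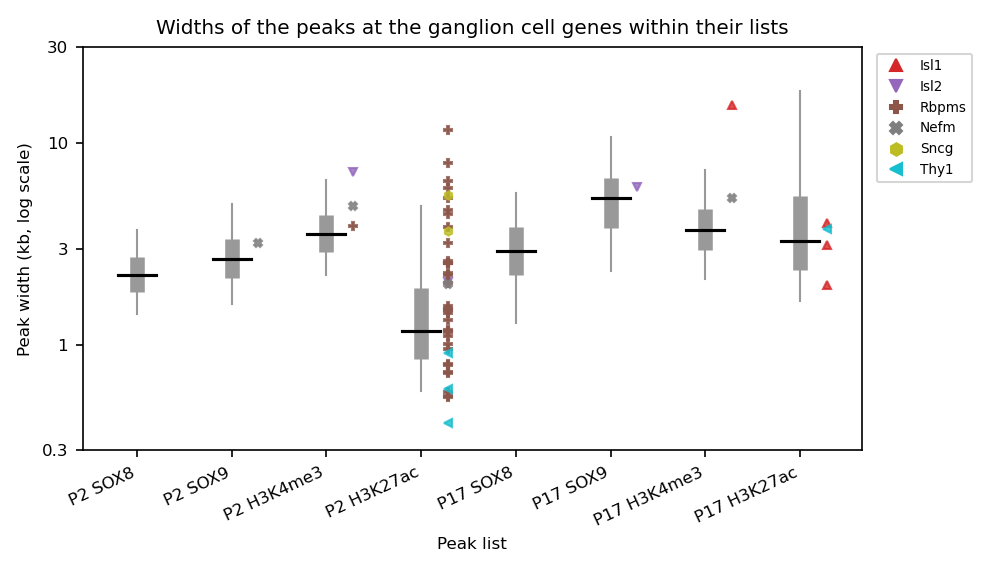
Widths of the peaks at ganglion cell genes (coloured symbols) beside all peaks of the same list (black line, median; grey bar, middle 50%; thin line, 5th to 95th percentile), in kb on a log axis. The P17 H3K4me3 peak of Isl1 (15549 bp) and the P2 H3K4me3 peak of Isl2 (7189 bp) stand above the thin line. So do the widest P2 H3K27ac peaks of Rbpms and Sncg. The SOX9 peaks lie near the middle of their lists.

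A list of 26 other genes used in ganglion cell work (transcription factors, cytoskeletal and guidance genes and subtype markers) gave counts nearer to those of all genes. H3K4me3 lay at 13 of 26 at P2 (50%, against 49.3% of all genes) and at 11 at P17 (42.3% against 50.9%). H3K27ac lay at 23 at P2 (88.5% against 81.8%) and at 13 at P17 (50% against 57.0%). SOX8 peaks lay at 1 gene at P2 (3.85% against 15.1%) and 2 at P17 (7.69% against 13.0%), and SOX9 peaks at 6 at P2 (23.1% against 27.7%) and 3 at P17 (11.5% against 15.7%). The median was 2.5 lists per gene. H3K4me3 was present at P2 only at Atoh7 (chromosome 10, 63099190 to 63102052), the progenitor factor that gives competence to form ganglion cells, and at Ebf3 and Foxp2. It was present at P17 only at Nefh, the heavy neurofilament chain, in a peak of 5668 bp (chromosome 11, 4945519 to 4951186) that also overlapped Ap1b1.

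At P2, SOX9 peaks at the other ganglion cell genes lay at Tubb3, Elavl3, Klf7, Uchl1 and Robo2, among others, and those at these genes overlapped both marks of that age, like the SOX9 peak of Nefm. Tubb3 and Elavl3, a tubulin and an RNA-binding protein, are general neuronal genes. Klf7, a transcription factor of growing axons, had the one P2 SOX8 peak (chromosome 1, 64119978 to 64122889), which overlapped its SOX9 peak. At P17, SOX9 lay at Ebf3 and Kcng4, among others. Those at Ebf3 (6744 bp) and Kcng4 (7414 bp) overlapped H3K27ac and no H3K4me3, unlike that at Isl2, which overlapped neither. Of all P17 SOX9 peaks, 64.8% overlapped both marks and 13.9% neither. Kcng4, a potassium channel subunit of alpha ganglion cells, also had a SOX8 peak, while the P17 SOX8 peak counted for Tubb3 lay outside that gene, over Mc1r. The P2 SOX9 peak and the H3K4me3 peaks of Tubb3 also overlapped Mc1r, so they cannot be assigned to Tubb3 alone.

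Lists for other retinal cells showed how the same 8 lists treated genes of other cells. H3K4me3, found at 49.3% of all genes at P2 and 50.9% at P17, lay at 9 of 20 rod genes at P2 and 20 at P17. It lay at 12 of 14 Müller glia genes at P2 and 6 at P17, and at 12 of 18 amacrine and horizontal cell genes at P2 and 10 at P17. SOX9, found at 27.7% of all genes at P2 and 15.7% at P17, lay at 10 Müller glia genes (71.4%) at P2 and 2 (14.3%) at P17, and at 4 rod genes (20%) at P2 and 14 (70.0%) at P17. The amacrine and horizontal cell list, the closest to ganglion cells in kind, had SOX9 at 9 of 18 genes (50%) at P2 and at 2 (11.1%) at P17, beside 1 of the 10 ganglion cell genes at each age. It had SOX8 at 0 genes at P2 and at 2 (11.1%) at P17, where all genes gave 15.1% and 13.0% and the 10 ganglion cell genes had none. These lists were chosen by hand and differ in gene length and composition, the differences between them were not tested, and whether retinal cell numbers bear on them was not tested.

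**Figure D5:**
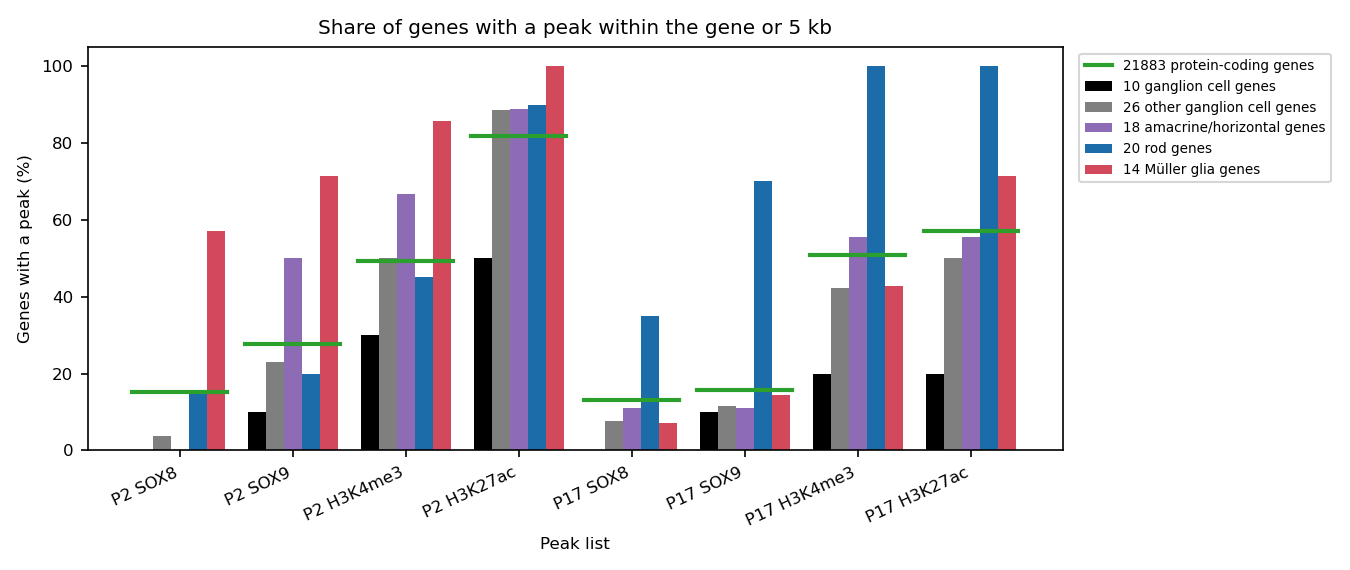
Share of genes with a peak in each list, in percent, for 5 gene lists (bars) and for 21883 protein-coding genes (green lines). The black bars of the 10 ganglion cell genes lie below the green line in all 8 lists, with no bar for SOX8.

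The shares of all genes moved when only genes of like length were taken. Among the 6501 protein-coding genes in the length range of the 9 members other than Rbpms (1497 to 11419 bp), 44.5% had H3K4me3 at P2 and 45.3% at P17, and 76.8% and 50.6% had H3K27ac, all below the shares of all genes. SOX shares among them were lower at P2 (14.5% for SOX8 and 25.3% for SOX9) and higher at P17 (15.0% and 17.8%) than those of all genes. Of those 9 genes, 2 had H3K4me3 at each age, and 4 had H3K27ac at P2 and 2 at P17. Windows widened to 50 kb on each side reached a P2 H3K27ac peak at all 10 genes and a P17 H3K4me3 peak at 6. The shares of all genes were not computed for such windows, so these counts cannot be read as particular to the 10 genes.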

How the data were processed

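CUT&RUN peak lists of mouse retina were analysed. Alignment with Bowtie2, peak calling with SEACR and the build GRCm38 are named in the submitters' processing notes. Thresholds, the use of IgG and the way libraries were combined are not given in the sources used here. The deposited lists hold chromosome, start and end, and the deposited score field was 0 in every peak. Each list was taken by its name to stand for the libraries of that age and target. Starts were converted to count from 1. Genes came from RefSeq on GRCm38.p6 (21883 protein-coding genes on the main chromosomes, window 5 kb on each side, overlap of 1 bp), and promoters from RefSeq (21262 matched, 5 of them of the genes described).

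The 10 genes and the comparison lists were chosen with earlier results of these data known. Named genes were all 10 members and, of the other ganglion cell genes, those with a SOX peak or with H3K4me3 at 1 age, except for a result that is not reported here. With 1 list per target and age no test was run, and counts of genes with a peak are set against the shares of all genes. Interval counts were checked on simulated peaks. Python 3.11.15, pandas 2.3.3 and matplotlib 3.10.9 were used.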

Additional observations from a re-analysis of the deposited data

How the results depend on the processing

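No paired analysis was possible because the lists carry no values per replicate, and no library could be left out for the same reason. Counts of the 10 genes with a peak were recomputed with the gene body alone, flanks of 1, 10 or 50 kb, the peak centre in the window, peaks trimmed to 500 bp, the wider 50% of each list and, for P2 SOX9 and P2 H3K27ac, the widest peaks in the P17 number. Of 58 such counts, 51 stayed within 1.5 times the reported one. Some of these were fixed in advance: the SOX8 counts were 0, and settings that only narrow windows, peaks or lists could not change them. With 50 kb flanks the counts were 3 for P2 SOX9, 10 for P2 H3K27ac, 1 for P17 SOX8, 2 for P17 SOX9, 6 for P17 H3K4me3 and 5 for P17 H3K27ac. A wider window by construction holds more peaks, and the shares of all genes with 50 kb flanks were not computed. With the widest peaks in the P17 number, 2 genes had P2 H3K27ac, and the share of all genes was not computed there. When peaks counted as shared only with 50% of the shorter one overlapped, the 4 counts of overlapping peaks above 0 at these genes were unchanged, and the other 8 were 0 and could not fall. Among genes with H3K4me3 of the same age, 53.3% had a P2 SOX9 peak and 27.4% a P17 SOX9 peak, against 27.7% and 15.7% of all genes. The background of genes in the members' length range was chosen after seeing the data. Depth is unknown, so a missing peak says only that none was listed.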

Other observations

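At Robo2, an axon guidance receptor, SOX9 had 2 peaks at P2, of 3161 and 2523 bp, each over its own H3K4me3 peak, and none at P17, while both H3K4me3 peaks were also listed at P17.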
